A study of Mus musculus with 13 samples.

Results

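The genes described here encode subunits of the ionotropic glutamate receptors, the ion channels that glutamate opens. They are 10 genes of the 55487 in the table, taken by symbol: the AMPA receptor genes Gria1, Gria2, Gria3 and Gria4, the kainate receptor genes Grik1, Grik2 and Grik5, and the NMDA receptor genes Grin1, Grin2c and Grin3a. All 10 matched a gene ID, 9 had at least 1 count, and 6 had enough counts to be tested, which left Gria2, Grik1, Grin1 and Grin2c untested. The libraries came from pacemaker cells (PC) of the sinoatrial node, the tissue that starts each heartbeat, and from right atrial cardiomyocytes (RACM), the neighbouring working muscle. All hearts were neonatal and carried the Hcn4-GFP and Myh6-mCherry reporters, and cells were sorted from the junction of node and atrium, pooled over 8 to 10 hearts for each biological replicate. Each cell type had 3 RNA libraries, numbered p0, p2 and p4 in both; the meaning of this p number is not given. Values of a cell type follow the order p0, p2, p4 throughout. Hcn4 marks the node and Myh6 heart muscle, so the reporters set which cells the sort could collect.

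As background, each receptor is an assembly of 4 subunits around a pore. AMPA receptors carry most fast excitatory transmission in the brain, and those that lack the Gria2 product pass calcium more readily. Kainate receptors need a subunit such as that of Grik1 or Grik2 to form a channel on their own, while the Grik5 product acts as their partner. NMDA receptors require the Grin1 product, which combines with products of the Grin2 and Grin3 genes. These families are known above all from neurons.

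Total counts ranged from 14141151 to 22290996 per library. All 7 pacemaker markers (among them Isl1, Tbx3 and Shox2) passed as higher in PC, and summed markers of heart muscle (Tnnt2, Actn2, Myh6, Ttn and Ryr2) were high in both sorts, from 54630 to 93150 CPM (the count of a gene divided by the scaled library total, times 1e6). Hcn4 is also among the 7. The sort used reporters of Hcn4 and Myh6, so the levels of these genes are not independent of the selection. Markers of 8 fibroblast genes summed to between 845 and 2169 CPM in PC and between 1596 and 10700 CPM in RACM, where RACM p4 was the highest. Of these 8 genes 1 passed as lower in PC. With the p number as a replicate block Col1a1, Col3a1, Dcn, Lum, Tcf21 and Postn passed as lower (edgeR adjusted p from 0.00145 to 0.047). Col1a2 and Pdgfra did not. That fit called 5.96% of all genes tested higher in PC and 5.6% lower. Markers of macrophages summed to at most 37.5 CPM in PC and to 81.1, 259.7 and 484.5 CPM in RACM, and 5 of 7 passed as lower in PC. With the block all 7 did (edgeR adjusted p from 8.66e-04 to 0.0205). Those of smooth muscle and pericytes summed to 597.8, 375.8 and 642 CPM in PC and to 178.6, 269.4 and 641.4 CPM in RACM. Of these 7 markers 2 passed as higher and 2 as lower in PC. With the block Acta2 also passed as higher, and Rgs5 and Kcnj8 as lower (edgeR adjusted p = 0.0099, 0.032 and 0.035). Endothelial markers summed to between 31.9 and 87.4 CPM in PC and between 84.1 and 104.3 CPM in RACM, and none passed. With the block Npr3 alone of these passed, as lower in PC (edgeR adjusted p = 0.038). Of 10 neuron markers, 7 stayed below 1 CPM in every library. Snap25 had no count in RACM and Prph none in PC, while Uchl1 was higher in PC (134, 92.9 and 110 CPM, against 6.0, 4.71 and 5.33 CPM). Elavl4 was at 4.06, 3.22 and 1.37 CPM in PC and 6.41, 3.82 and 2.45 CPM in RACM, and Tubb3 at most 1.23 CPM. Neither passed. Markers of Schwann cells and satellite glia summed to between 15.5 and 17.9 CPM in PC and between 19.6 and 23.0 CPM in RACM. None of the 4 tested glia markers passed. In such pooled samples fewer cells of a type and less RNA per cell cannot be told apart.

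Only Gria1, Gria3 and Grik5 exceeded 10 CPM, and the other 7 genes stayed below 5 CPM in every library. All 3 abundant genes had higher values in each PC library than in any RACM library, as did 13.5% of all genes tested, and Grin2c, which was not tested, had the reverse. None of the 6 tested genes passed the edgeR quasi-likelihood test at a Benjamini-Hochberg adjusted p below 0.05, where 3.69% of the 18015 genes tested were called higher and 3.57% lower in PC. At an unadjusted p below 0.05 there were 2 of the 6, Gria1 and Gria3, against 21.1% of all genes tested. With the p number as a replicate block these 2 passed as higher in PC, in a fit that called 5.96% of all genes higher and 5.6% lower. DESeq2 also called both, in a test that called 6.21% of all genes higher and 6.58% lower. limma-voom called Gria1 alone, in a test that called 3.45% higher and 2.48% lower.

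**Figure D1:**
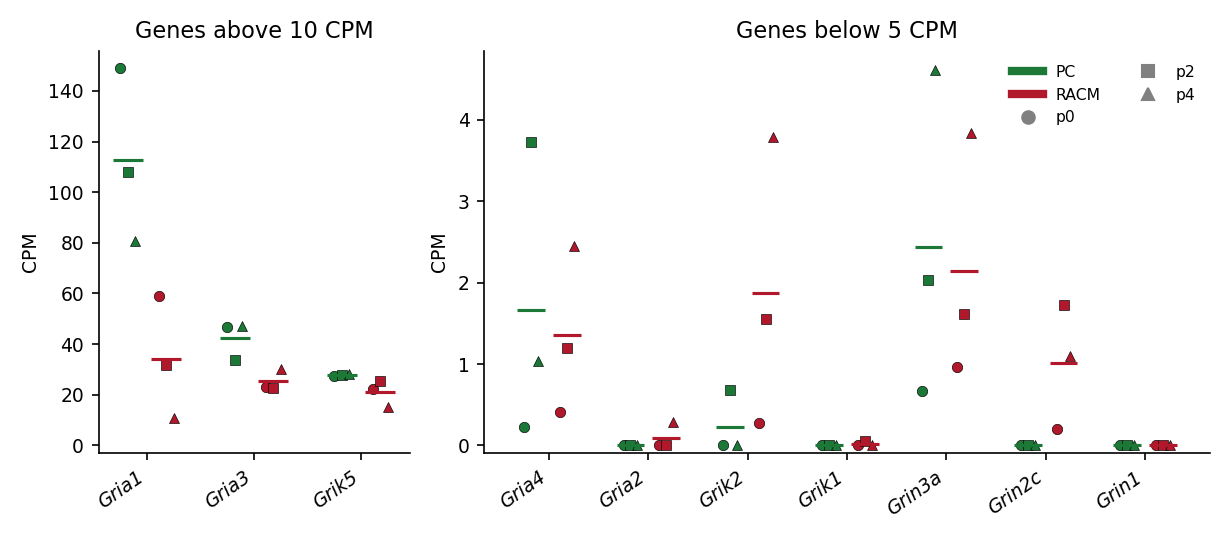
CPM of the 10 genes in each library, with the abundant genes on the left and the rest on the right on separate linear scales. Points are libraries (green PC, red RACM; circle p0, square p2, triangle p4) and bars are means of 3; Gria1 spans 80.7 to 149 CPM in PC and 10.99 to 59.1 CPM in RACM, and Grin1 lies at 0 throughout.

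Per exon length, Gria1 was the most abundant of the 10 genes in all libraries but RACM p4. It encodes an AMPA receptor pore subunit (ENSMUSG00000020524, mm10 chromosome 11 from 57011387 to 57330244, plus strand), and none of its exon bases were shared with another gene. Its level was 149, 108 and 80.7 CPM across PC, and 59.1, 31.9 and 10.99 CPM across RACM. The cell types did not overlap, and within each the p0 library was highest and the p4 library lowest. The PC mean was 113 ± 34.4 CPM (SD, n = 3) and the RACM mean 34.0 ± 24.1 CPM. The difference came to 1.73 ± 0.50 on the log2 scale (SE), PC minus RACM, and missed the threshold (edgeR adjusted p = 0.0765). With the replicate block the log2 fold change was 1.97 ± 0.28 (edgeR adjusted p = 0.00487). Without RACM p0 it also passed, at 2.40 (edgeR adjusted p = 0.0229), and without both p4 libraries at 1.48 (edgeR adjusted p = 0.037). It did not pass when any other single library was left out (0.0647 to 0.227), and it passed in 6 of 14 alternatives in all.

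The difference between libraries of 1 cell type was itself large for Gria1. A test of the p number beside cell type, chosen after the values were seen, gave Gria1 an unadjusted p of 0.00523 and an adjusted p of 0.232 by edgeR, which called 1 gene in all (0.00555%). The same test by DESeq2 gave an adjusted p of 3.82e-04 for Gria1, among 670 genes called (3.72%). With edgeR it also passed when any 1 library but RACM p0 was left out (adjusted p from 0.00748 to 0.0451), in fits that called between 235 and 458 genes in all. It did not pass without both p4 libraries (0.0681) or by limma-voom (adjusted p = 0.0972). No other gene of the 10 passed by either tool, and DESeq2 gave Gria4 and Grik2 no adjusted p. Summed heart muscle markers were 79510, 93150 and 79570 CPM across PC, and 81380, 84630 and 54630 CPM in RACM. Gria1 per 1000 CPM of these markers was 1.87, 1.16 and 1.01 CPM in PC and 0.727, 0.377 and 0.201 CPM in RACM. On this scale too the cell types did not overlap. Ttn alone stood at 36624, 55993 and 44549 CPM of this sum in PC. Tnnt2, also in the sum, was higher in each PC library than in any RACM library. Tnnt2 did not pass (edgeR adjusted p = 0.0936) but passed with the replicate block (edgeR adjusted p = 0.0108). The scale is thus not a neutral measure of muscle content, whose part in the level of Gria1 was not tested. Summed fibroblast markers were 1596, 3679 and 10700 CPM in the same RACM libraries, and macrophage markers rank these libraries alike; their part in the level of Gria1 was not tested.

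Gria3, a second AMPA receptor subunit gene (ENSMUSG00000001986, chromosome X from 41400854 to 41678601, plus strand), was at 46.6, 33.9 and 47.0 CPM across PC. In RACM it was at 22.9, 22.8 and 30.1 CPM. PC libraries lay above RACM libraries, with a narrow gap between PC p2 and RACM p4. The log2 fold change was 0.75 ± 0.21 (edgeR adjusted p = 0.0676), and 0.75 ± 0.17 with the replicate block (edgeR adjusted p = 0.0326). Per 1000 CPM of summed heart muscle markers the order was less clear, since RACM p4 at 0.550 CPM exceeded PC p2 at 0.363 CPM. RACM p4, where Gria3 was highest in RACM, is also the library with the most fibroblast and macrophage marker RNA; its part in the level of Gria3 was not tested.

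**Figure D2:**
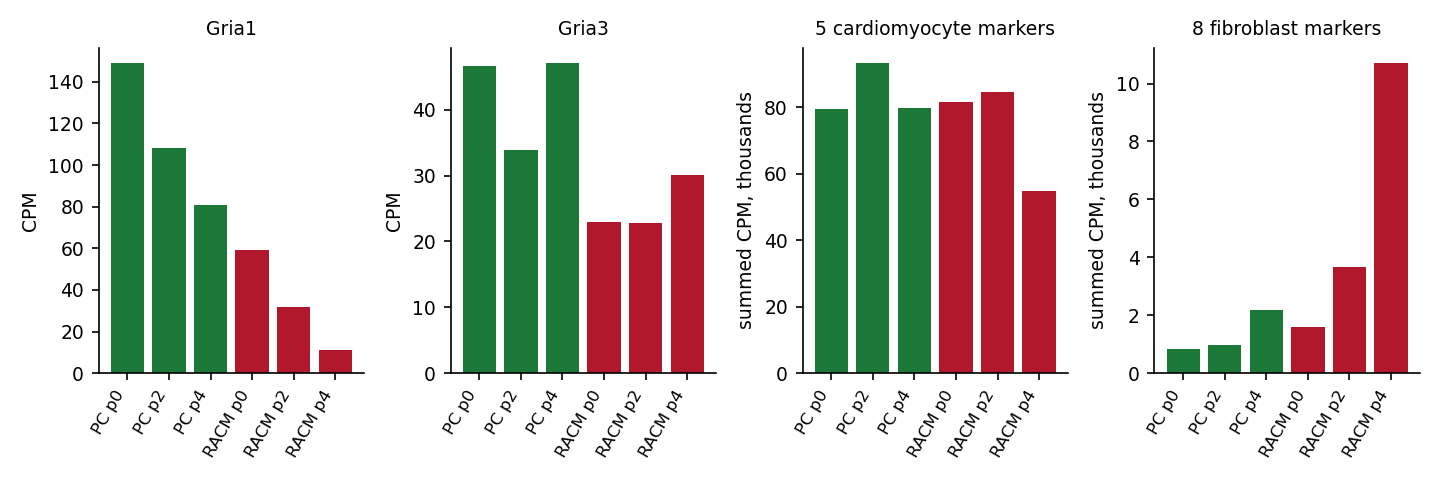
Gria1 and Gria3 in CPM, and summed CPM (in units of 1000) of 5 heart muscle markers and 8 fibroblast markers, as 1 bar per library (green PC, red RACM). Gria1 is lowest in RACM p4 at 10.99 CPM, where the fibroblast sum is highest at 10700 CPM and Gria3 stands at 30.1 CPM.

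Gria4 was scarce, at 0.222, 3.72 and 1.04 CPM across PC, and 0.413, 1.19 and 2.45 CPM in RACM. The ranges overlapped and PC p2 stood above the rest. Its log2 fold change of 0.28 ± 0.99 did not pass (edgeR adjusted p = 0.911), and its sign changed in 4 of 13 alternative analyses. Gria2, the subunit gene that sets calcium permeability (chromosome 3 from 80681450 to 80802835, minus strand), had 0 counts in every PC library, which allows up to 0.0527 CPM over the 3. In RACM it had 6 counts, all in RACM p4. It was not tested.

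Levels of different genes can be set side by side only per exon length, as CPM per kilobase of exon (RPKM). Gria1 stood at 18.6 ± 5.69 RPKM (SD, n = 3) in PC and 5.63 ± 3.99 RPKM in RACM, and Gria3 at 4.31 ± 0.76 and 2.56 ± 0.42 RPKM. Of the summed RPKM of the 4 AMPA genes, Gria1 took 83.8%, 81.6% and 73.0% across PC, and 80.4%, 67.9% and 34.5% in RACM. Gria3 took 16.1%, 15.7% and 26.1% in PC and 19.1%, 29.7% and 57.8% in RACM. Gria1 was thus the leading AMPA gene in 5 of the 6 libraries, and Gria3 led in RACM p4. The shares of RACM p0 lay within the range of PC. Gria2 took at most 0.351%, in RACM p4, and Gria4 between 0.12% and 7.36%.

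Grik5 was the main kainate receptor gene in both cell types. It lies on chromosome 7 from 25009849 to 25072346 (minus strand) and shares no exon base with another gene. Its level was 27.5, 27.7 and 28.1 CPM across PC, and 22.3, 25.4 and 15.1 CPM in RACM. The PC libraries were nearly level, and each lay above every RACM library; libraries did not overlap in one direction or the other for 26.9% of all genes tested. The log2 fold change was 0.41 ± 0.23 and did not pass (edgeR adjusted p = 0.367, and 0.246 with the replicate block). Per length, Grik5 was at 5.37 ± 0.06 RPKM in PC and 4.05 ± 1.02 RPKM in RACM. In PC its level was thus above that of Gria3 in every library, and the RACM libraries held 4.31, 4.92 and 2.93 RPKM of it against 2.32, 2.31 and 3.05 RPKM of Gria3.

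Kainate subunits that can form channels on their own were scarce. Grik2 had 0, 12 and 0 counts across PC (0, 0.677 and 0 CPM) and 4, 26 and 79 counts in RACM (0.276, 1.55 and 3.79 CPM). PC p2 lay above RACM p0, so the cell types overlapped. The log2 fold change of -3.06 ± 1.46 did not pass (edgeR adjusted p = 0.277), and it was negative in all 13 alternatives that tested it. The RACM values of Grik2 lie in the same order as the fibroblast and macrophage sums of these libraries, and the part of other cells in them was not tested. Grik1 had 1 count over all 6 libraries, in RACM p2.

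Among the NMDA receptor genes the obligatory subunit was not detected. Grin1 (chromosome 2 from 25291181 to 25319187, minus strand; 13.5% of exon bases shared with Grin1os) had 0 counts in all 6 libraries, which allows up to 0.0275 CPM over all of them. Grin3a, whose product lowers current through NMDA receptors, was at 0.667, 2.03 and 4.62 CPM across PC, and 0.965, 1.61 and 3.84 CPM in RACM. Its cell types overlapped, with a difference of 0.18 ± 0.78 on the log2 scale (edgeR adjusted p = 0.928), and both p4 libraries stood highest. The test of the p number gave Grin3a an unadjusted p of 0.0264 and an adjusted p of 0.355 by edgeR. The sign of its difference between cell types changed in 3 of 13 alternatives. Within each cell type the Grin3a values lie in the same order as the fibroblast sums, and the part of other cells was not tested.

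Grin2c was counted only in RACM. It had 3, 29 and 23 counts across RACM (0.207, 1.73 and 1.10 CPM) and 0 in each PC library. Against a floor of 3 counts over the PC libraries, it was at least 20.0-fold lower in PC. It had too few counts for the main test. Without the filter on low counts, in a fit that called 3.18% of 33066 genes higher and 3.89% lower, it passed (edgeR adjusted p = 0.00624). Leaving out PC p0, PC p2 or PC p4 brought it into the test, where it did not pass (edgeR adjusted p from 0.0833 to 0.108), and without RACM p0 it passed (0.0412). RACM p0, which held 3 of the counts, also had the lowest fibroblast and macrophage sums in RACM. The part of other cells in the level of Grin2c was not tested.

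The promoters of Grik5, Gria2 and Grin1 are printed because these genes are, among the 6 with a RefSeq promoter entry, the most abundant one and the pair with the fewest counts. Gria2, Gria4, Grik2, Grik5, Grin1 and Grin2c matched; Gria1, Gria3, Grik1 and Grin3a did not. Each line gives the 250 bases before the RefSeq start (GRCm38.p6, minus strand, 5′ to 3′), with matches of GGGCGG on either strand, a motif bound by Sp factors, in capitals.
Grik5: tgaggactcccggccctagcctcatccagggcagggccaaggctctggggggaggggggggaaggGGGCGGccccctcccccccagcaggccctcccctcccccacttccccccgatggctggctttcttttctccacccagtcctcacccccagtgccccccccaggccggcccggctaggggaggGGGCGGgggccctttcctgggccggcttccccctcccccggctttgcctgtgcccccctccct
Gria2: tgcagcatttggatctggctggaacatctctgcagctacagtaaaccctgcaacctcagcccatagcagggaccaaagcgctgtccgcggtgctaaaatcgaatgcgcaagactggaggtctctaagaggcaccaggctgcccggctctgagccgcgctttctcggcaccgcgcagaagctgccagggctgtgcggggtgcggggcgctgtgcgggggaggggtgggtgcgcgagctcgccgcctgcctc
Grin1: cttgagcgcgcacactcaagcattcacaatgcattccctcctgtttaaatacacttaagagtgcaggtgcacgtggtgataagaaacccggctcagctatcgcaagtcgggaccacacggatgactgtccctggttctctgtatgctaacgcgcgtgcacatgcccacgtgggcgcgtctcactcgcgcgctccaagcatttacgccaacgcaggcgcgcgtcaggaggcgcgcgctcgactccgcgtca

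These windows lie at chr7:25072370-25072619, chr3:80802836-80803085 and chr2:25319188-25319437. Grik5 holds 2 matches and 75.2% G and C, while Gria2 and Grin1 hold no match and 64.8% and 58.8%. The motif stands in 32.7% of the 32851 promoter windows in the table, whose median G and C content is 52.4%. Grin2c, with 55 counts in all, holds 3 matches, and Gria4 and Grik2 hold none. CpG pairs went the other way, at 8 in Grik5, 19 in Gria2 and 27 in Grin1. Presence of the motif did not follow the order of the levels over these 6 genes.

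Set beside the other 8 ionotropic subunit genes, the 10 genes held most of the family's RNA. Over all 18, summed RPKM was 37.4, 30.4 and 25.8 across PC, and 17.4, 14.4 and 10.0 in RACM, so that the cell types did not overlap. The 4 AMPA genes made up 29.4, 21.9 and 18.3 RPKM of this in PC and 12.2, 7.79 and 5.27 RPKM in RACM. The 5 kainate genes were closer, at 5.32, 5.46 and 5.44 RPKM in PC and 4.50, 5.15 and 3.32 RPKM in RACM. NMDA genes were at most 1.42 RPKM in any library, led in all but PC p4 by Grin3b, 32.1% of whose exon bases are shared with Tmem259; in PC p4 Grin3a led.

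**Figure D3:**
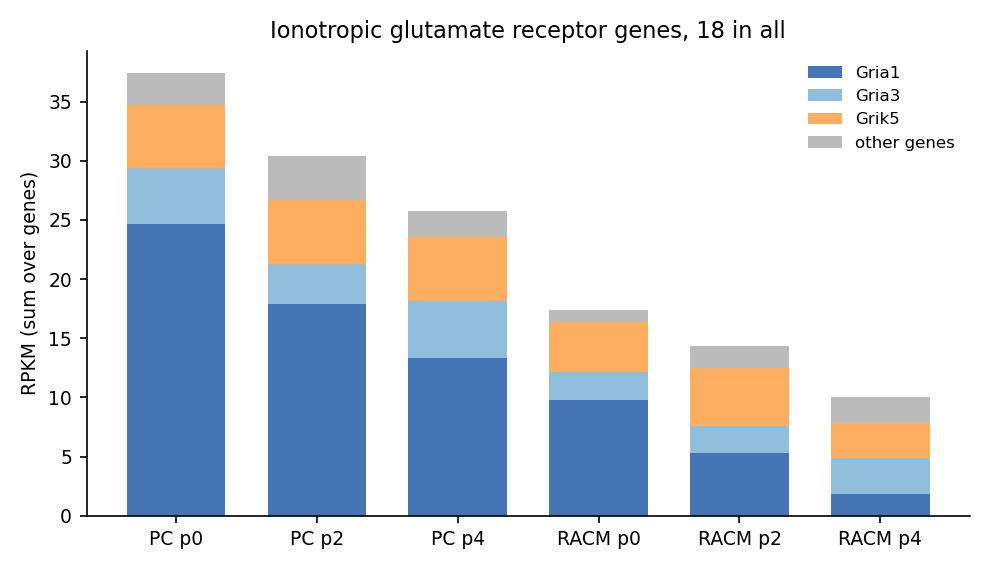
Summed RPKM of all 18 ionotropic glutamate receptor genes in each library, split into Gria1, Gria3, Grik5 and the other genes. The stacks run from 25.8 to 37.4 RPKM in PC and from 10.0 to 17.4 RPKM in RACM.

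Of those other 8 genes, 4 were tested, of which 1 rose and 1 fell, beside 3.69% higher and 3.57% lower over all genes tested. The gene that fell, the kainate subunit gene Grik3, had 49 counts in RACM against 1 in PC, so RACM exceeded PC 53.5-fold with a 95% counting interval from 9.17 to 2157. It passed (edgeR adjusted p = 0.0251), a call lost when any 1 library was left out (0.0718 to 0.11). Grin2a, also of RACM like Grin2c, had 57 counts there and 0 in PC, at least 20.8-fold lower, and was not tested. Of these counts 1 lay in RACM p0, the RACM library with the lowest fibroblast and macrophage sums. The part of other cells in the level of Grin2a was not tested.

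Auxiliary subunits join the receptor pore and change its gating and transport. Of 17 such genes 8 were tested, and 3 rose and 1 fell, beside 3.69% higher and 3.57% lower over all genes tested. Their median log2 fold change was 0.59, beside 0.01 over all genes tested. Shisa6, whose product prolongs AMPA receptor currents, was at 95.1, 73.0 and 81.9 CPM across PC, and 25.4, 13.1 and 8.02 CPM in RACM, a difference of 2.43 ± 0.37 on the log2 scale (edgeR adjusted p = 0.0066). Shisa9, of the same family, was at 8.29, 14.7 and 9.95 CPM in PC and at most 0.657 CPM in RACM (log2 fold change 4.75 ± 0.54, edgeR adjusted p = 0.00142). Both passed in all 14 alternatives. Gria1 and Shisa6 both had PC above RACM in every library; whether their differences are unequal was not tested.

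Syndig1, which binds AMPA receptors at synapses, had 169 counts in PC and 7 in RACM (log2 fold change 4.40 ± 0.69, edgeR adjusted p = 0.00716; 0.0527 without both p4 libraries). Its relative Prrt1 went the other way, with 0 counts in PC and 103 in RACM, at least 37.5-fold lower in PC (edgeR adjusted p = 0.0141; 0.0585 without RACM p4). Gsg1l, the most abundant of the list per length, was at 106, 111 and 113 CPM in PC and 101, 94.5 and 78.0 CPM in RACM and did not pass (edgeR adjusted p = 0.372). The TARP genes Cacng2, Cacng3 and Cacng8 had at most 1 count over all libraries, while Cacng7 had 26 in PC and 284 in RACM and did not pass (edgeR adjusted p = 0.0908). Its RACM counts of 25, 58 and 201 lie in the order of the fibroblast and macrophage sums. The part of other cells in them was not tested. Neto2, a kainate receptor partner and in that sense beside Grik5, did not pass either (log2 fold change 0.91 ± 0.37, edgeR adjusted p = 0.202).

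**Figure D4:**
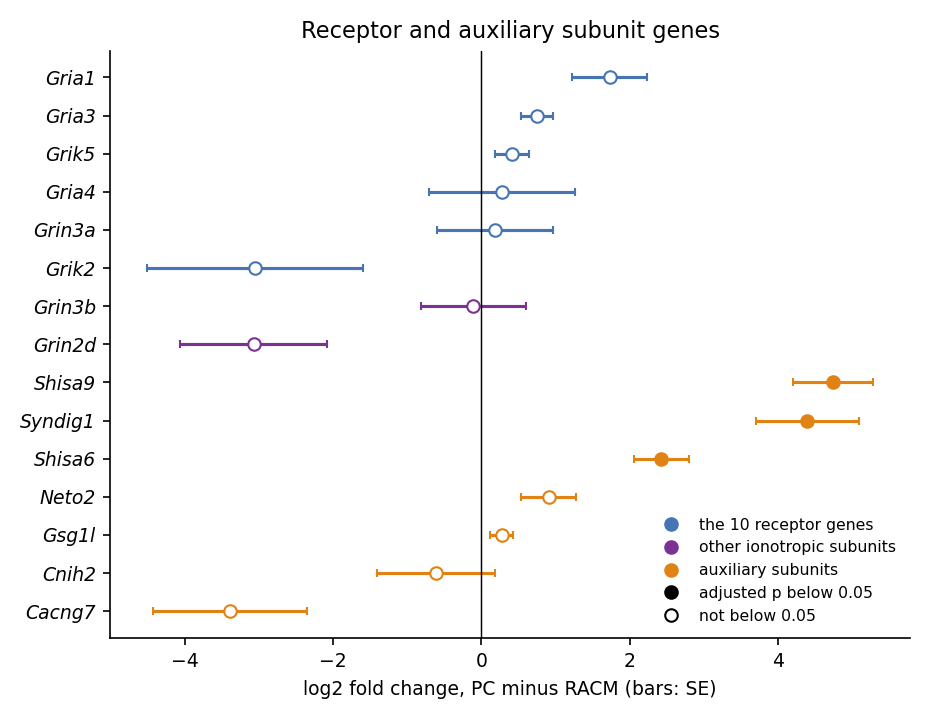
Log2 fold changes (PC minus RACM, edgeR) with SE bars for tested receptor and auxiliary subunit genes with more than 3 counts in each cell type. Filled points passed at an adjusted p below 0.05: Shisa9, Syndig1 and Shisa6, while all 6 tested genes of the set of 10 are open. Grik3 and Prrt1, which passed as lower in PC, had too few counts in PC to be drawn. The other ionotropic subunit gene that passed as higher in PC is not reported here and is not drawn.

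Among 23 scaffold and trafficking genes 19 were tested (median log2 fold change -0.16), of which 1 rose and 1 fell. Over all genes tested 3.69% were higher and 3.57% lower. With the replicate block 2 of the 19 were higher, beside 5.96% of all genes tested, and Homer2 passed too (edgeR adjusted p = 0.04, and 0.203 without the block). The gene that fell, Homer1, a postsynaptic scaffold also present in muscle, averaged 159 ± 42.3 CPM in RACM against 84.8 ± 10.1 CPM in PC (log2 fold change -0.90, edgeR adjusted p = 0.0372; the call held without RACM p4 but not without any other single library, 0.0817 to 0.119). Lin7c, the most abundant per length, had a log2 fold change of -0.05. The ADAR enzymes edit receptor transcripts, among them that of Gria2; neither tested gene of 3 passed (Adar -0.72 and Adarb1 -0.47 on the log2 scale).

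Of 8 metabotropic receptor genes 1 was tested, and it did not pass. Of 10 transporter genes 7 were tested and 2 fell, beside the 3.57% of all genes tested that were lower. Slc1a7 had 109 counts in RACM against 2 in PC (59.5-fold, with a counting interval of 16.1 to 498; edgeR adjusted p = 0.00811; 0.0525 without RACM p2), and Slc7a11 had 151 in RACM against 12 in PC (edgeR adjusted p = 0.0173; lost without PC p2, RACM p2 or RACM p4, 0.0506 to 0.105, and by limma-voom, 0.0505). Slc17a7, a vesicular glutamate transporter gene, was at 20.8, 24.5 and 12.2 CPM in PC and 15.0, 22.8 and 9.65 CPM in RACM and did not pass (edgeR adjusted p = 0.741).

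Of 10 genes of glutamate and D-serine metabolism 8 were tested, and 2 rose (median log2 fold change 0.58), beside the 3.69% of all genes tested that were higher. With the replicate block 3 rose, beside 5.96% of all genes tested. Gad2, which turns glutamate into GABA, had 447 counts in PC against 2 in RACM (205-fold, with a counting interval of 56.3 to 1695; edgeR adjusted p = 0.00246), and it did not pass by limma-voom (adjusted p = 0.0544). Got2, a mitochondrial aminotransferase that interconverts glutamate and aspartate, differed by 0.88 ± 0.22 on the log2 scale, PC higher (edgeR adjusted p = 0.047; lost without any library but RACM p0, 0.0608 to 0.194, and with upper-quartile scaling, 0.0507). Got1, its cytosolic counterpart, was the most abundant of these genes per length and did not pass, though it passed with the replicate block (log2 fold change 0.91, edgeR adjusted p = 0.0908, and 0.00458 with the block).

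The profile of Gria1 over the 6 libraries was set beside those of 9213 genes tested with at least 10 CPM in 1 cell type. Genes without a symbol, or with a predicted or accession-like symbol, were left out of this set. The closest were Bend4, Get4 and Zadh2, with Pearson correlations of log2(CPM + 1) of 0.995, 0.995 and 0.994 over 6 libraries, which share cell type and p number in pairs. Each was highest in PC p0 and lowest in RACM p4, like Gria1: Bend4 at 78.9 and 30.2 CPM, Get4 at 82.9 and 18.8 CPM, and Zadh2 at 90.7 and 46.2 CPM. Their spans were smaller than that of Gria1, and none of the 3 passed the edgeR test between cell types (adjusted p from 0.118 to 0.219).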

How the data were processed

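RNA-seq was compared between 3 PC and 3 RACM libraries; 7 ATAC-seq samples are left aside and not analysed here. The deposited values are raw counts of fragments per gene over exons, made with featureCounts 2.0.1 on mm10 without a strand option, per the file headers, so overlapping genes cannot be told apart. Per the submitters' processing notes, Trimmomatic and HISAT2 were used, with no version given. Symbols were matched for 55141 of 55487 gene IDs.

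Genes passing filterByExpr (minimum count 10, minimum total count 15) were scaled by TMM and tested 2-sided with edgeR 4.0.16 (glmQLFit, glmQLFTest) in R 4.3.3, adjusted over 18015 genes by Benjamini-Hochberg at 0.05. CPM and RPKM use TMM-scaled library sizes and the deposited exon lengths. Counting intervals are exact binomial at 95% and, like floors of 3 counts, cover counting error only. Since 3 libraries against 3 cannot give an exact permutation p below 0.1, none is given. Same-numbered libraries deviated together (r = 0.219, 0.306 and 0.281 across genes for p0, p2 and p4, all above 0.1). This meets the criterion for pairing by number, although no label states it. The main fit has no block. Results with the block stand beside the genes of the lists and the reported markers whose call it changes. No replicates were near-identical (chi-square per degree of freedom from 29.0 to 74.7).

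Alternatives tried were scaling by RLE or by upper quartile, no filter, a filter of 5 CPM, the replicate block, DESeq2 1.42.0, limma-voom (limma 3.58.1) and left-out libraries. The steps were tested on simulated data. The genes and lists were chosen with earlier results of these data known. Named are all 10 genes and, per other list, the 2 of smallest p, the most abundant per length and the first called in the opposite direction; for likeness, the 3 genes closest to the most abundant gene. Syndig1, Neto2, Homer2, Cacng7, Grin2a, Grin3b and the TARP genes were named after their values were seen. Some genes of the lists are not reported here.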

Additional observations from a re-analysis of the deposited data

How the results depend on the processing

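Counts of the 10 receptor genes called were 0 higher and 0 lower in PC in the main analysis. They were 2 higher with the replicate block and by DESeq2 (Gria1 and Gria3 in both), 2 higher and 1 lower with no filter (Gria1, Gria3 and Grin2c), and 1 higher by limma-voom and without both p4 libraries (Gria1). With each library left out in turn they ranged from 0 to 1 higher and from 0 to 1 lower. The sign of Gria1, Gria3 and Grik5 was positive, and that of Grik2 negative, in every alternative that tested them. The log2 fold change of Gria4 turned negative with the replicate block (-0.12) and by limma-voom (-0.27), and with 1 library left out it ranged from -1.09 to 1.03, negative without PC p2 (-1.09) or RACM p0 (-0.13). That of Grin3a was -0.018 by limma-voom and ranged from -0.67 to 0.92 with 1 library left out, negative without PC p4 (-0.67) or RACM p0 (-0.15). The cause of these changes was not tested.

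The main analysis called 665 genes higher and 644 lower over the whole table. These counts were 1052 and 1287 with no filter, 1074 and 1008 with the replicate block, 1118 and 1186 by DESeq2, 378 and 356 without both p4 libraries, and from 304 to 658 and from 207 to 680 with 1 library left out, lowest without RACM p2. The test of the p number called none of the 10 genes by edgeR and 1 with no filter or by DESeq2, and from 0 to 1 with 1 library left out. Gria2, Grik1, Grin1 and Grin2c had too few counts to be tested in the main analysis. The part of sequencing depth in this was not tested.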
